A study of Mus musculus with 2 samples.

Results

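The vascular endothelial growth factor (VEGF) family was read in the hearts of newborn mice through its 5 secreted ligands (Vegfa, Vegfb, Vegfc, Vegfd and Pgf), its 3 receptor tyrosine kinases (Flt1, Kdr and Flt4) and its 2 neuropilin co-receptors (Nrp1 and Nrp2). These 10 genes were taken by name from the 43346 Ensembl genes of the deposited gene tables, and their 35 annotated transcripts from the transcript tables. Each matched 1 row, with Vegfd found under its present name. The series holds 1 group of 2 libraries of total RNA, from the hearts of pups 2 and 3 of a single pregnancy, strain B6NCrl, postnatal day 0 (replicates 1 and 2). Per the labels the mice carried no named allele or treatment, their sex was not collected, and both samples bear the same donor identifier. There was no second age, tissue or condition, so levels are compared between genes within a heart and between the littermates.

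VEGF ligands are secreted dimers that bind receptors carried mainly by endothelial cells. Vegfa binds both Flt1 (VEGFR1) and Kdr (VEGFR2), and Kdr carries most of the signal for endothelial growth and permeability. Pgf and Vegfb bind Flt1 but not Kdr. Vegfc and Vegfd act on lymphatic vessels through Flt4 (VEGFR3). Neuropilins bind VEGF and semaphorins and lack a kinase domain. In heart, muscle cells are a known source of Vegfa and Vegfb, whereas the receptors belong to the vessels and the endocardium. In whole-heart RNA, fewer cells of a type and less RNA per cell cannot be told apart.

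Several members are spliced into proteins that differ in where they act, and the coding bases at which the forms part are shown first because the transcript results rest on them. The sequences are those of GENCODE M21 on mm10, written 5′ to 3′ on the coding strand. Each line starts with 30 bases shared by the forms of its gene. In Vegfb, the capitals are 101 bases that Vegfb-201 keeps at chr19:6985496-6985596 (minus strand) and Vegfb-202 splices out. The insertion shifts the reading frame, so that Vegfb-201 ends after 207 codons without the basic tail, a freely secreted form, and Vegfb-202 ends after 188 codons with a tail that binds heparan sulphate. Both lines run to the stop codon.
Vegfb-202: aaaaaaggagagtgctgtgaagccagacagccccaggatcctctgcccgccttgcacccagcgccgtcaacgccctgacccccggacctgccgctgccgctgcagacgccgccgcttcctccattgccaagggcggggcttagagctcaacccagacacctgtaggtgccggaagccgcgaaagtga
Vegfb-201: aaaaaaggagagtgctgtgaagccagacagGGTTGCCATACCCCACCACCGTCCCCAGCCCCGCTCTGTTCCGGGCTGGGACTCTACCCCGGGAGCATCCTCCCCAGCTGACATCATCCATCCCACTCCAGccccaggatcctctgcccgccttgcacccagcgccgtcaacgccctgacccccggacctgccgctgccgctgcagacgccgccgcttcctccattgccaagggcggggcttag

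In Flt1, the capitals are the first 95 bases after the point where the forms part. Flt1-202, of 1333 codons, joins to the next exon at chr5:147634429-147634523 (minus strand) and goes on to the transmembrane and kinase domains. Flt1-203, of 688 codons, reads on into the intron at chr5:147639130-147639224 (minus strand) and meets a stop codon. The latter encodes the soluble receptor, which binds ligand without signalling.
Flt1-202: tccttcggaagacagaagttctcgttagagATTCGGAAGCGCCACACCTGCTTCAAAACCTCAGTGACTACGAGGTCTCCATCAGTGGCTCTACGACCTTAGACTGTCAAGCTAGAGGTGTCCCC
Flt1-203: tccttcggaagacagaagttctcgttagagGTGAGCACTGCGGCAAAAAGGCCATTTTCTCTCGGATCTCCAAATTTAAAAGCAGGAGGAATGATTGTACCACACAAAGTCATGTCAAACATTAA

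In Vegfa, the capitals are segments absent from Vegfa-201, which encodes the short diffusible form. Vegfa-202 holds 132 bases at chr17:46020991-46021122 (minus strand), and Vegfa-203 holds 72 bases at chr17:46022277-46022348 (minus strand). Both segments bind heparin and matrix, and the former also contributes to binding of neuropilin. Each line runs to the stop codon.
Vegfa-201: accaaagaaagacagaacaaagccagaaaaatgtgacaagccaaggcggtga
Vegfa-202: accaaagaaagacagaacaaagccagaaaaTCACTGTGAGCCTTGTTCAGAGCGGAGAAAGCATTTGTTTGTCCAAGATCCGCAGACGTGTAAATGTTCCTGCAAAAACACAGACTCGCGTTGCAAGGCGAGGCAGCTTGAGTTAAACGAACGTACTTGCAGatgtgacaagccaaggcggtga
Vegfa-203: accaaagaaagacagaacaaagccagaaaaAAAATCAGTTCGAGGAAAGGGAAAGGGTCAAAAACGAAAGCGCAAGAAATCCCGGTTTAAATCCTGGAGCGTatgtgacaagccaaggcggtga

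In Nrp2, the forms differ close to the membrane. The capitals are 15 bases at chr1:62786302-62786316 (plus strand) in Nrp2-203, a separate exon of 51 bases at chr1:62812534-62812584 (plus strand) in Nrp2-202, and the first 60 bases of another tail at chr1:62795709-62795768 (plus strand) in Nrp2-205. Forms with the tail of Nrp2-202, Nrp2-203 and Nrp2-204 are known as the a forms, and those with the tail of Nrp2-205 as the b forms.
Nrp2-204: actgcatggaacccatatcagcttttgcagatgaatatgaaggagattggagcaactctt
Nrp2-203: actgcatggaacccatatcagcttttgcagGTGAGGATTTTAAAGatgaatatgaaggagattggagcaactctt
Nrp2-202: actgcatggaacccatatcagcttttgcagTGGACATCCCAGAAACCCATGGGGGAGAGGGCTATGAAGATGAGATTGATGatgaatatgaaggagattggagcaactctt
Nrp2-205: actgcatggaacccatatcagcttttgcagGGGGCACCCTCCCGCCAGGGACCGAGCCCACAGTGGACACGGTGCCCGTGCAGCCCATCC

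The libraries held 46151722 and 44707283 expected counts, reads assigned to a feature by estimate. Levels are given in TPM (reads per length, with the same total in each library), for replicate 1 and then replicate 2. Genes that define heart muscle were abundant (all 10 listed genes detected, with Myl2 at 11818 and 11724 TPM), and all 14 endothelial genes were detected, from 3.90 TPM (Ptprb) to 121 TPM (Egfl7) in the mean. Actc1 led the muscle genes at 16412 and 13902 TPM, with Tnnt2 at 10667 and 9972 TPM. At the gene level the posterior SD of the count was 0 for all 10 members in both libraries, so the estimate divided no reads between a member and another gene. Nothing overlapped 8 of the members in the annotation. Nrp2 contains the antisense gene Gm29083, with 0 counts, and Gm37121, with 12 and 14 counts, and Nrp1 contains Mir1903, with 0 counts. A lung epithelial list of 6 genes summed to 31.0 and 639 TPM, led by Scgb3a2 (2.96 and 563 TPM), while Sftpc went the other way (25.5 and 0.340 TPM). Scgb1a1 (0.970 and 74.3 TPM), Sftpa1 (1.13 and 0.310 TPM), Sftpb (0.420 and 0.250 TPM) and Epcam (0.0700 and 0.870 TPM) made up the rest. The 5 erythroid genes summed to 6036 and 3916 TPM, with Hbb-bs at 3480 and 2278 TPM, Hba-a1 at 2513 and 1613 TPM, Alas2 at 37.6 and 23.0 TPM and Slc4a1 at 2.38 and 0.970 TPM. The part of either list in the members' values was not tested.

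Vegfb was by far the most abundant ligand. All 10 members reached 1 TPM in both pups, the level counted as detected, where 29.6% of all Ensembl genes and 54.5% of protein-coding genes did so. Their median of 5.21 TPM lay below the 11.99 TPM of the 11699 protein-coding genes detected in both pups. It lay above the 1.99 TPM of all protein-coding genes, detected or not.

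Vegfb (ENSMUSG00000024962.9, chr19:6982473-6987651, minus strand) reached 146.9 TPM (replicate 1) and 146.7 TPM (replicate 2), on 6130 and 6054 counts. It ranked 851 among the 12812 genes detected in both pups, within the top 6.64%. Vegfb held 91.2% and 90.99% of the summed TPM of the 5 ligands (161.0 and 161.2 TPM). Known mainly as a ligand of Flt1 with weak angiogenic activity, it is typical of tissues with high oxidative metabolism.

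Vegfc (ENSMUSG00000031520.5, chr8:54077606-54187096, plus strand), the main lymphatic growth factor, came next among the ligands at 6.29 and 6.50 TPM, on 428 and 437 counts. Vegfa (ENSMUSG00000023951.12, chr17:46016993-46032369, minus strand), the principal angiogenic factor, stood at 4.02 and 3.78 TPM, on 416 and 376 counts. Vegfb thus exceeded Vegfc 22.95-fold and Vegfa 37.6-fold in mean TPM. Vegfc exceeded Vegfa 1.64-fold, and the values of the pups did not overlap. These ligand differences were smaller in CPM, reads scaled to the library total but not divided by length. In CPM Vegfb stood at 132.8 and 135.4, Vegfc at 9.27 and 9.77 and Vegfa at 9.01 and 8.41, so that Vegfc over Vegfa shrank from a log2 ratio of 0.59 (TPM + 1) to 0.12.

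Pgf (ENSMUSG00000004791.6, chr12:85166635-85177790, minus strand), placental growth factor, stood at 2.60 and 2.71 TPM, on 147 and 152 counts. Vegfd (ENSMUSG00000031380.10, chrX:164373378-164402650, plus strand), the other ligand of Flt4, was the lowest member at 1.19 and 1.53 TPM, on 85 and 113 counts. Its lower interval bound in replicate 1 was 0.957 TPM, under the detection level. Vegfc exceeded it 4.70-fold.

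Among the receptors Kdr was the highest and Flt4 the lowest. Kdr (ENSMUSG00000062960.7, chr5:75932827-75978458, minus strand) reached 23.4 and 20.7 TPM, on 5183 and 4529 counts. Flt1 (ENSMUSG00000029648.9, chr5:147561604-147726011, minus strand), which binds Vegfa tightly but signals weakly, stood at 8.71 and 9.02 TPM, on 1940 and 1805 counts. Flt4 (ENSMUSG00000020357.3, chr11:49609263-49652739, plus strand) stood at 2.49 and 2.41 TPM, on 583 and 558 counts. Kdr exceeded Flt1 2.48-fold and Flt4 8.98-fold, and held 67.6% and 64.4% of the summed receptor TPM (34.6 and 32.1 TPM). Set beside the 14 endothelial genes, 9 had a higher mean TPM than Kdr, 10 a higher one than Flt1 and all 14 a higher one than Flt4.

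Nrp1 was the most abundant of all receptors and co-receptors. Nrp1 (ENSMUSG00000025810.8, chr8:128358604-128503363, plus strand) stood at 44.0 and 45.9 TPM and drew the most reads of any member, 9753 and 10074 counts. Nrp2 (ENSMUSG00000025969.11, chr1:62703285-62818695, plus strand), a co-receptor of lymphatic vessels and veins, stood at 3.98 and 4.09 TPM, on 877 and 894 counts. Nrp1 exceeded Nrp2 11.1-fold and Kdr 2.04-fold. Nrp1 is also made by cells other than endothelium, and which cells carried it here was not measured.

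**Figure D1:**
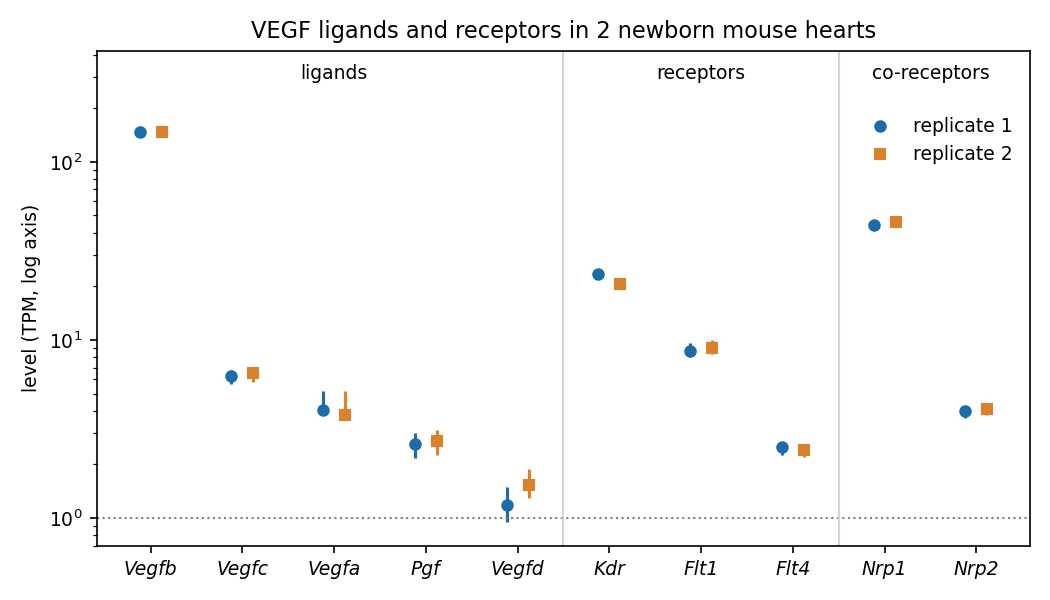
Level of each member in TPM (log axis) in replicates 1 and 2. Points are deposited TPM values, vertical lines the deposited credibility intervals, and the dotted line is 1 TPM. Vegfb lies near 147 TPM in both pups, with Nrp1 and Kdr next and Vegfd lowest.

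From high to low the members ran Vegfb, Nrp1, Kdr, Flt1, Vegfc, Nrp2, Vegfa, Pgf, Flt4 and Vegfd. A pair was called different in level if the log2 ratio of TPM + 1 had the same sign in both pups, its mean exceeded the difference between the pups, and the deposited credibility intervals of TPM did not overlap in either pup. Of the 45 member pairs 43 were called, a share to be read against 89.1% of all pairs of detected protein-coding genes called by the same rule. Of the 9 pairs of neighbours in the order, 7 were called. Nrp2 and Vegfa were not told apart, at log2 ratios of -0.01 and 0.09, nor were Pgf and Flt4, at 0.04 and 0.12. The narrowest called neighbours were Flt1 over Vegfc (log2 ratio 0.42 ± 0.0031) and Vegfa over Pgf (0.42 ± 0.081). With 2 pups an exact permutation of signs, two-sided, gives at best 0.5, so p-values were left out. These ratios are per length, and on scaled counts not divided by length 4 called pairs turned: Nrp1 stood above Vegfb, Nrp2 and Flt4 above Vegfc, and Flt4 above Vegfa.

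Vegfb was spliced mostly to its heparan sulphate-binding form. Vegfb-202 measured 93.98 and 92.4 TPM, against 51.2 and 52.2 TPM for the freely secreted Vegfb-201. Their intervals were far apart in both pups, 86.3 to 98.4 against 45.4 to 55.7 TPM in replicate 1 and 85.3 to 96.4 against 47.1 to 56.5 TPM in replicate 2. Among the coding transcripts Vegfb-202 held 64.3% ± 0.601 of TPM (n = 2), and it exceeded Vegfb-201 1.84-fold and 1.77-fold. A retained-intron transcript, Vegfb-203, held 1.19% and 1.36% of all Vegfb TPM.

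Flt1 was read both as the membrane receptor and as the soluble one. Flt1-202, the membrane form, stood at 5.18 and 4.71 TPM, and Flt1-203, the soluble form, at 2.17 and 1.85 TPM, with intervals that did not overlap in either pup. The soluble form held 29.5% and 28.2% of the TPM of the coding transcripts, and 27.7% and 26.4% of their counts. Flt1-203 (6292 bases for 688 codons) reads on into an intron of the membrane form. In total RNA, reads of unspliced Flt1 there cannot be told from the soluble form, and their part in its share was not tested. A non-coding transcript of 2049 bases, Flt1-201, took a further 1.10 and 2.17 TPM. It held 12.6% of Flt1 in replicate 1 and 24.1% in replicate 2, but its intervals of 0.284 to 1.70 and 1.39 to 2.92 TPM overlapped. Kdr exceeded the membrane form of Flt1 4.51-fold and 4.39-fold. Vegfa, taken as a whole gene with its non-coding transcripts, exceeded the single transcript of the soluble form 1.85-fold and 2.04-fold in TPM. It had fewer reads, 416 and 376 counts against 513 and 433.

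Vegfa reads were spread over several transcripts, and their split was not determined well. Vegfa-211 and Vegfa-201 led with 1.71 and 1.59 TPM in replicate 1 and 1.07 and 1.09 TPM in replicate 2, so that the leading transcript changed between the pups. Both lack the heparin-binding segments in the annotation used here. That annotation gives Vegfa-211 (324 codons), Vegfa-202 (368) and Vegfa-207 (392) coding regions that start further upstream than that of Vegfa-201 (146). The M21 model of Vegfa-211 has 975 bases where the deposited one has 3324. Together Vegfa-211 and Vegfa-201 held 92.96% of the TPM of the coding transcripts in replicate 1 and 63.7% in replicate 2. By the posterior mean, another deposited estimate of TPM, their share was 80.3% and 58.3%. Vegfa-202, with the segment of 132 bases, measured 0.250 and 0.970 TPM. Its intervals, 1.89e-05 to 0.861 and 0.304 to 1.55 TPM, overlapped. By the posterior mean it held 10.7% and 24.8% of the coding transcripts. Vegfa-203 had 0 counts in replicate 1 and 4.07 in replicate 2. The coding transcripts with both kinds of segment, Vegfa-204 and Vegfa-207, had 0 counts in both pups, with upper interval bounds between 0.262 and 0.483 TPM. By the posterior mean they held 5.12% and 7.93% of the coding transcripts. Their models are short, 654 and 1973 bases against 2765 for Vegfa-201 and 3451 for Vegfa-202. The 0 counts therefore do not show that forms with both segments were absent.

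Nrp2 was divided between its tails in similar proportions in both pups. The 4 transcripts of the a forms held 63.98% and 65.9% of the TPM of coding transcripts, and the 2 of the b forms (Nrp2-201 and Nrp2-205) 36.0% and 34.1%. Within the a forms Nrp2-203, with the 15-base insertion, stood at 1.54 and 1.15 TPM and Nrp2-204, without it, at 0.630 and 1.02 TPM. Their intervals overlapped in both pups, 0.408 to 2.03 against 0.0118 to 1.60 TPM in replicate 1 and 0.245 to 2.08 against 0.00120 to 1.64 TPM in replicate 2. Nrp2-201 held 21.3% and 16.9% of all Nrp2 TPM, and Nrp2-205 12.2% and 14.1%. The transcripts with the 51-base exon held 5.65% and 7.53% of the TPM of coding transcripts.

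The remaining members had little or no alternative splicing in the deposited annotation. Nrp1, Vegfc and Pgf each had 1 transcript. The deposited model of Nrp1-201 has 5907 bases and that of Vegfc-201 1881, where M21 has 3597 and 2449. Their TPM, and their places in the order of members, rest on the deposited lengths. Kdr-201 held 99.6% and 99.3% of Kdr, Flt4-201 99.4% and 98.9% of Flt4, and Vegfd-201 92.8% and 100% of Vegfd. Only Vegfb, Flt1 and Kdr had at least 5 TPM in both pups and more than 1 transcript. All 3 had the same leading transcript in both pups, as did 94.6% of the 6445 genes examined in this way. TPM divides reads by length, so these shares differ from shares of reads.

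**Figure D2:**
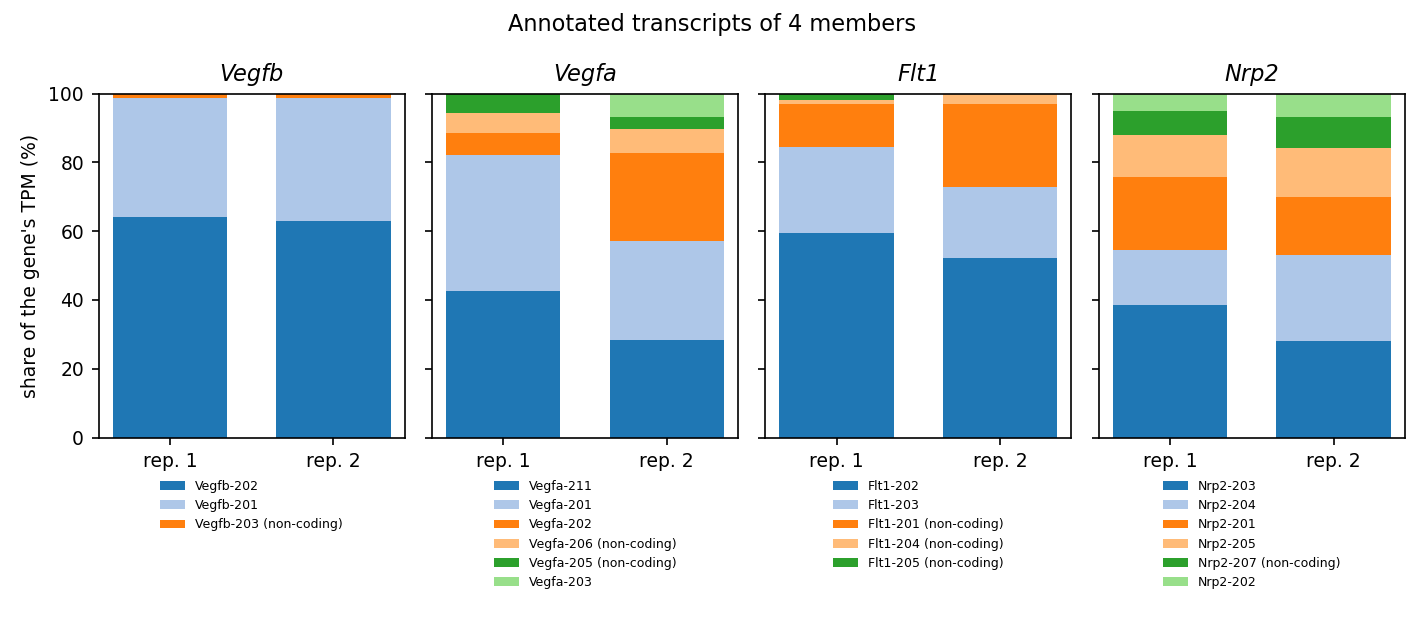
Share of the TPM of Vegfb, Vegfa, Flt1 and Nrp2 held by each annotated transcript with at least 1% in either pup, as stacked bars for replicates 1 and 2. The shares of Vegfb hardly differ between the pups (Vegfb-202 at 63.98% and 63.0%), while Vegfa-202 takes 6.23% in replicate 1 and 25.5% in replicate 2.

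No member differed 2-fold between the littermates, and Vegfd differed most. Differences are log2 ratios of counts scaled by TMM (a factor per library that sets aside differences in composition), replicate 2 minus replicate 1. None of the members had a log2 ratio of 1 or more in either direction, the size counted as differing. Such a ratio was rare among all genes, in 56 of the 13454 that averaged 50 counts or more and passed a filter on low counts (0.416%). Without that filter it was found in 67 of 13465. With so low a share, finding none among 10 members does not set them apart. The members' median absolute log2 ratio was 0.075, against 0.10 over all 13454 genes. Of the 10 members 6 were higher and 4 lower in replicate 2.

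Vegfd had a log2 ratio of 0.43, with a 95% exact (Clopper-Pearson) counting interval of 0.023 to 0.87. It was the member with the fewest reads. Kdr was lower in replicate 2, at -0.16 (interval -0.22 to -0.11), and Nrp1 higher, at 0.078 (0.038 to 0.12). Intervals of the other 7 members included 0. The intervals cover counting error only. The biological coefficient of variation, estimated over 15980 genes, was 0.0892, which corresponds to an SD of 0.18 for a log2 ratio between pups. The differences of Kdr and Nrp1 were smaller than that. The difference of Vegfd, 0.43, was larger, with the wide counting interval given above. With 1 library per pup no test of a difference is possible.

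The directions of Flt1, Vegfb and Flt4 depended on the scale. Its scaled counts gave a log2 ratio of -0.073, whereas its TPM was higher in replicate 2 (0.045 on TPM + 1). The mean length over its transcripts, by which TPM is divided, fell from 5934 to 5401 bases as Flt1-201 took a larger share. Vegfb went from 0.013 to -0.0022 on TPM + 1. Flt4 (-0.032) turned positive when the spike-in RNAs, on 262 and 246 counts, set the scale.

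**Figure D3:**
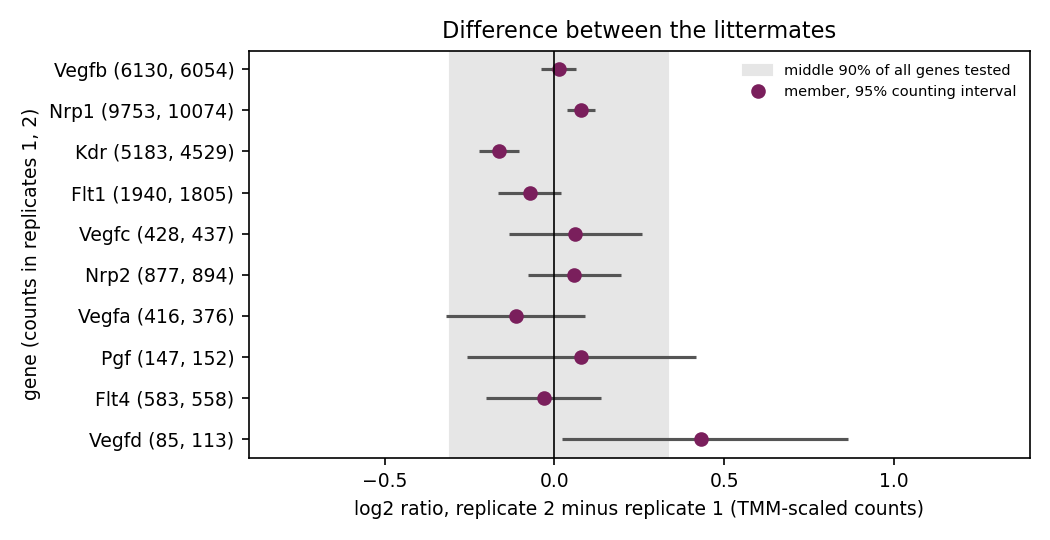
Log2 ratio of TMM-scaled counts of each member, replicate 2 minus replicate 1, with 95% exact counting intervals (horizontal lines) and the counts of both replicates beside the names. The grey band holds the middle 90% of all 13454 genes tested, from -0.31 to 0.33, and Vegfd at 0.43 is the member outside it.

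Of 39 genes of the pathway downstream of Kdr, 36 were detected (92.3%), with a median of 17.7 TPM. This share and those of the lists that follow stand beside 54.5% of all protein-coding genes, whose median was 1.99 TPM. That median and those of the lists include undetected genes. Among the protein-coding genes detected in both pups, used above for the members, the median was 11.99 TPM. Hspb1, a small heat shock protein phosphorylated downstream of p38 kinase, led at 794 and 741 TPM, followed by the small GTPase genes Cdc42 (302 and 299 TPM) and Rac1 (133 and 139 TPM). Each is widely expressed outside endothelium. The exceptions were Sh2d2a (0.0600 and 0.0800 TPM), an adaptor, Pik3cb (1.24 and 0.540 TPM), a catalytic subunit of phosphoinositide 3-kinase, and Prkcb (0.710 and 0.810 TPM), a protein kinase C.

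Among 25 partners and restraints of the receptors, 24 were detected, with a median of 8.89 TPM. Gipc1, which binds the tail of neuropilins, stood at 75.7 and 75.95 TPM, Rab5a, which acts in endocytosis, at 44.2 and 42.8 TPM, and the heparan sulphate proteoglycan gene Gpc1 at 41.0 and 39.5 TPM. Ptprj, a receptor phosphatase that acts on Kdr, was at 0.430 TPM in both pups.

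Of 9 maturation genes of Vegfc and Vegfd, 5 were detected (55.6%), a share near the 54.5% of all protein-coding genes, with a median of 1.5 TPM. Vegfc and Vegfd are made as precursors, and Ccbe1 with the protease Adamts3 is needed to process Vegfc. Ccbe1 was at 0.130 and 0.0900 TPM (12 and 17 counts), Adamts3 at 1.56 and 1.43 TPM. Ctsd, a lysosomal protease that can cleave both ligands, stood at 371 TPM in both pups, and the convertase genes Furin at 14.4 and 12.8 TPM and Pcsk7 at 9.07 and 7.65 TPM. Adamts14 (0.910 and 0.780 TPM), Plg (0.0200 and 0 TPM) and Plau (0.680 and 0.640 TPM) were below 1 TPM.

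All 21 regulators of Vegfa transcription and mRNA were detected, with a median of 23.6 TPM. The RNA-binding protein gene Hnrnpl led at 129 and 112 TPM, followed by the splicing factor gene Srsf1 (62.8 and 61.5 TPM) and by Zfp36l1 (45.7 and 52.2 TPM), whose product destabilises Vegfa mRNA. Of 22 genes known to respond to VEGF in endothelial cells, 18 were detected, with a median of 6.38 TPM. Cd34, a marker of capillaries, stood at 97.1 and 87.7 TPM, Rcan2 at 65.4 and 57.6 TPM and Mmp14 at 45.3 and 43.9 TPM. Which cells of the whole heart carried the genes of this list was not measured. The early response genes Egr2 (0.460 and 0.570 TPM), Egr3 (0.120 and 0.0400 TPM) and Nr4a2 (0.890 and 0.870 TPM) were below 1 TPM, as was Esm1, a gene of endothelial tip cells (0.470 and 0.600 TPM).

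Endothelial genes went both ways between the pups. The median log2 ratio of the 14 endothelial genes was -0.021, with 8 lower and 6 higher in replicate 2, beside -0.16 for Kdr, -0.073 for Flt1 and -0.032 for Flt4. They ranged from -0.41 for Erg, an endothelial transcription factor (5.49 and 3.77 TPM), to 0.28 for Cldn5, a tight junction gene (34.1 and 41.1 TPM). Egfl7 (120 and 121 TPM), Eng (104 and 100.3 TPM) and Esam (63.4 and 62.4 TPM) led this list. Of 8 lymphatic genes 7 were detected, with Fgl2 (41.4 and 33.4 TPM), Ccl21a (14.4 and 20.3 TPM) and Prox1 (13.1 and 13.4 TPM) the most abundant. Prox1 is also a gene of heart muscle cells, and Fgl2 is made outside lymphatic vessels. Reln was not detected (0.760 and 0.860 TPM). Of 5 endocardial genes 4 were detected, led by Plvap (48.6 and 47.3 TPM), Cdh11 (18.0 and 19.8 TPM) and Nfatc1 (6.18 and 6.23 TPM), while Hapln1 was not (0.490 and 0.680 TPM). Whether endocardium or other cells carried the genes of the endocardial list was not measured.

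Genes of the other cell types that a whole heart holds were also read. All 9 mural genes were detected, led by Acta2 (1130 and 884 TPM), Tagln (32.3 and 38.2 TPM) and Kcnj8 (18.2 and 16.7 TPM), though Acta2 is also made by newborn heart muscle. All 6 fibroblast genes were, led by Col1a1 (254 and 261 TPM), Dcn (206 and 237 TPM) and Col1a2 (149.9 and 160.3 TPM). All 5 epicardial genes were, led by Msln (40.8 and 38.8 TPM), Upk3b (24.3 and 27.4 TPM) and Krt19 (15.8 and 22.4 TPM). Of 6 macrophage genes 5 were, led by C1qa (19.7 and 20.9 TPM), Cd68 (4.70 and 6.45 TPM) and Csf1r (5.22 and 5.44 TPM), while Fcgr1 was not (0.940 and 0.740 TPM).

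Across the pathway lists, where Dll4 and Unc5b are counted among both partners and responsive genes, more genes were lower than higher in replicate 2. This held for 29 of 38 genes of Kdr signalling, 16 of 25 partners, 6 of 7 maturation genes, 13 of 20 responsive genes and 13 of 21 regulators, against 50.4% of all genes tested. Their medians lay between -0.15 and -0.032, beside -0.0011 over all genes tested, and none of their genes was counted as differing. Among the wider differences, picked after the values were seen, were those of Angpt2, a ligand of the Tek receptor (1.95 and 3.13 TPM, log2 ratio 0.70), the immediate early gene Egr1 (5.34 and 8.46 TPM, 0.67) and Hif1a, the hypoxia-responsive regulator of Vegfa (51.4 and 36.95 TPM, -0.45). Hif3a, another member of that family, stood at 3.16 and 4.67 TPM (0.46). Epas1, its relative in endothelium, stood at 6.72 and 6.79 TPM. In the same comparison the median was -0.70 for the 5 erythroid genes, all lower in replicate 2, 0.18 for the 6 macrophage genes, -0.11 for the 9 mural genes, 0.086 for the 6 fibroblast genes and -0.063 for the 10 heart muscle genes. The lean was thus not particular to the pathway, with 7 mural and 7 heart muscle genes lower in replicate 2. Only 2 fibroblast genes and 1 macrophage gene were lower.

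**Figure D4:**
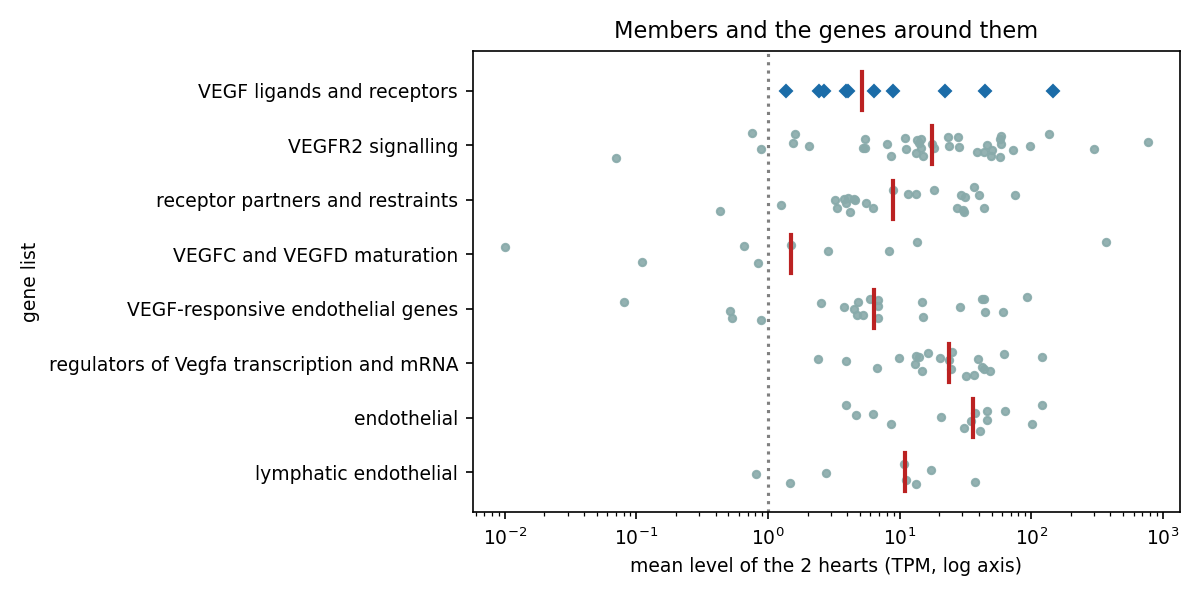
Mean TPM of the 2 hearts (log axis) for the 10 members (diamonds) and for the genes of 7 lists (dots). Red bars are medians and the dotted line is 1 TPM. The members span 1.36 to 147 TPM, with a median of 5.21 TPM below that of the Kdr signalling genes (17.7 TPM) and of the endothelial genes (36.1 TPM).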

How the data were processed

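Total RNA of 2 hearts was quantified by the authors on mm10 with GENCODE M4, per the deposited read-me; no label or header read here names the aligner. RNA was extracted with a mirVana kit, 10 ng went into a library and the size range was above 200 bases, per the labels' protocols. Whether counting used strand is not given. The authors deposited, per library, expected counts (estimated reads per feature), TPM and FPKM per effective length, and credibility bounds of TPM and the posterior SD of counts, a signal in TPM or count units whose interval width is not stated. The percent column of the deposited transcript table is a transcript's share of its gene.

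Names, coordinates, coding exons and sequences came from GENCODE M21 on mm10, matched by identifier without version for 42462 of 43346 genes. The SDs and p-value limits refer to 2 littermates. Expected counts were rounded and scaled with TMM (edgeR 4.0.16, R 4.3.3; filterByExpr, prior count 2; common dispersion of an intercept-only design). DESeq2 1.42.0 size factors were an alternative. Tables were handled with Python 3.11.15 and pandas 2.3.3. The procedure was tested on simulated counts. The members and lists were chosen with earlier results of these data known. Named were all members, the 3 most abundant genes of each list, its undetected genes (up to 4, in list order), list genes differing between the pups, transcripts with at least 10% of their gene and coding forms with known domain differences. Vegfb-203, Adamts3, Ptprb, Erg, Cldn5, Angpt2, Egr1, Hif1a, Hif3a, Epas1 and the remaining lung genes were named outside this rule, after their values were seen. Dll4 and Unc5b were named for being shared between lists.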

Additional observations from a re-analysis of the deposited data

How the results depend on the processing

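At a detection level of 5 TPM instead of 1, 5 of the 10 members were detected. The counts of members detected under the other settings, of pairs called, of members differing between the pups, of leading transcripts and of list genes detected stayed within 1.5 times their values. Leaving out either replicate could be run for members detected (10 and 10), pairs called (43 and 43) and list genes detected (165 and 168, against 164). These counts require both pups, so leaving 1 out could not lower them and is no check of them. For pairs it also drops the condition on the difference between the pups. FPKM of at least 1 was reached by 9 members, and 2 members had the same leading transcript among coding transcripts, where Kdr has a single one. Pairs called numbered 42 without division by length, with 37 of the 43 called in both and in the same direction, and 42 on coding transcripts only. The log2 ratio of Vegfb over Vegfa, 4.92 on TPM + 1, ranged from 3.80 (not divided by length) to 5.23 (no pseudocount). Of 54 values of fixed pairs under alternatives that kept both replicates, 31 moved by more than the SD between the pups; so did 8 of 21 transcript shares. Of 60 log2 ratios between the pups, 4 left the counting interval. No paired analysis was possible because the series has a single group. Vegfd and Pgf had the fewest reads.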
